A study of Canis lupus familiaris with 21 samples.

Results

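The genes described here encode the beta-2 integrins and the intercellular adhesion molecules (ICAMs) to which they bind. The members were chosen by name: ITGB2, ITGAL, ITGAM, ITGAX, ITGAD, ICAM1, ICAM2 and ICAM3. A row carrying the gene symbol was found for 7 of these 8 genes, among 21399 rows in all. ITGAD was not analysed here.

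RNA was measured in canine cutaneous histiocytoma (CCH), a skin tumor of dogs that is derived from Langerhans cells, the dendritic cells of the epidermis, and that often regresses on its own while lymphocytes enter it. Archived formalin-fixed, paraffin-embedded (FFPE) tumors of privately owned dogs were staged by the Cockerell and Slauson scheme, and 3′ end libraries were sequenced from 21 samples. Group 1 held tumor cell-rich tissue of stage 1, in which lymphocytes are not seen histologically (n = 5, ages 0.5 to 5 years with 1 age not given). Group 2a held tumor cell-rich areas of stage 2 (n = 5, 0.6 to 3 years), in which lymphocytes enter from the margin. Group 2b held lymphocyte-rich areas of stage 2 (n = 6, labelled ages 0.3 to 6 years with 1 dog of a pool without an age). Group 3 held stage 3 tumors, in which lymphocytes reach the center and form follicle-like structures (n = 5, 1.5 to 9 years). All samples of groups 1, 2a and 3 and 2 samples of group 2b came from single dogs, whereas the other 4 samples of group 2b were pools of tissue from 3 to 4 dogs. The labels do not tie the areas of group 2a to those of group 2b. For 1 dog of a group 2b pool the breed, age and sex are not listed, and a dog of group 2a has the same tumor site. No other dog of group 2b matches a dog of group 2a in the breed, age, sex and tumor site that the study lists. Areas of stage 2 were selected under the microscope and punched out, whereas the study describes no punching for groups 1 and 3. In group 2a vs group 1 and in group 3 vs group 2b, stage and punching therefore cannot be told apart. As only group 2b held pools, pooling also differs between the groups in both of its comparisons. All samples are mixtures of cell types.

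Beta-2 integrins are adhesion receptors of leukocytes. The shared beta chain CD18, encoded by ITGB2, reaches the cell surface only when paired with an alpha chain: CD11a (ITGAL) in LFA-1, CD11b (ITGAM) in Mac-1, CD11c (ITGAX) in the receptor typical of dendritic cells, or CD11d (ITGAD). LFA-1 is carried by most lymphocytes and binds ICAM-1, ICAM-2 and ICAM-3 when T cells adhere to vessels or to antigen-presenting cells, Mac-1 is abundant on neutrophils and macrophages, and CD11c together with CD18 is part of the marker panel by which canine histiocytic tumors are recognized. ICAM-1 is induced on many cells by inflammatory cytokines, ICAM-2 is held constitutively by endothelium and leukocytes, and ICAM-3 is a leukocyte protein.

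On the dog genome UU_Cfam_GSD_1.0 the genes lie in 4 places. The 4 alpha chain genes stand near each other on chromosome 6: ITGAD from 16968289 to 16993053, ITGAX from 17057566 to 17086388, ITGAM from 17102490 to 17158038 and ITGAL from 17765852 to 17806699. ITGB2 lies on chromosome 31 from 38463168 to 38490402. ICAM3 (51174429 to 51181511) and ICAM1 (51216377 to 51225401) are neighbors on chromosome 20, and ICAM2 lies on chromosome 9 from 15008298 to 15023061. Within these spans, ITGAM overlaps the pseudogene LOC100688051 and ICAM1 overlaps the long non-coding RNA LOC119877329, to which 23 reads were assigned over all samples.

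Between 2113393 and 3559404 reads per sample were assigned to genes (median 2514859). DV200, the percentage of RNA fragments above a minimum length and a measure of RNA integrity, was lower in group 1 (64.5 to 71.2, median 68.9) than in group 2a (70.5 to 76.6, median 73.7), with overlap, and its median was 74.5 in group 2b and 72.8 in group 3. The DV200 label of 1 sample of group 3 is lower than the value in the study's sample list, with which the median of group 3 would not be below that of group 2b. The labelled areas were checked against marker genes. The normalized counts of 12 T cell markers, summed, reached 64.3 to 2267 and 566 to 1761 in the tumor cell-rich groups 1 and 2a, but 3217 to 4944 and 3374 to 5535 in the lymphocyte-rich groups 2b and 3, so that every lymphocyte-rich sample stood above every tumor cell-rich sample, although some tumor cell-rich samples held clear T cell signal. Among these markers CD4 had a mean of 0 in groups 1 and 2a and of at most 0.65 in the other groups. Summed B cell markers had medians of 619, 737, 1465 and 597 in groups 1, 2a, 2b and 3. Group 2b (1219 to 2006) stood above both tumor cell-rich groups (459 to 698 and 397 to 965), whereas group 3 (399 to 2138) overlapped with them. Summed histiocyte and macrophage markers overlapped in all groups, with medians of 3333, 3330, 3551 and 3247 in groups 1, 2a, 2b and 3. Of the 5 Langerhans cell markers, CD207 and LY75 had no row and CD1A6 had a mean of at most 0.85 in each group, which leaves CDH1 and EPCAM, both also epithelial, so this list says little about the tumor cells.

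All values below are the deposited normalized counts, the reads of a gene divided by the size factor of the sample. A gene is said to have risen or fallen, or to be called, when, in edgeR's quasi-likelihood test, the p adjusted over all tested genes by the Benjamini-Hochberg method was 0.05 or less and the log2 fold change was 1 or more in either direction. Each library holds tissue from mixed cells, in which fewer cells of a type and less RNA per cell cannot be told apart. Levels are compared between samples and not between genes.

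**Figure D1:**
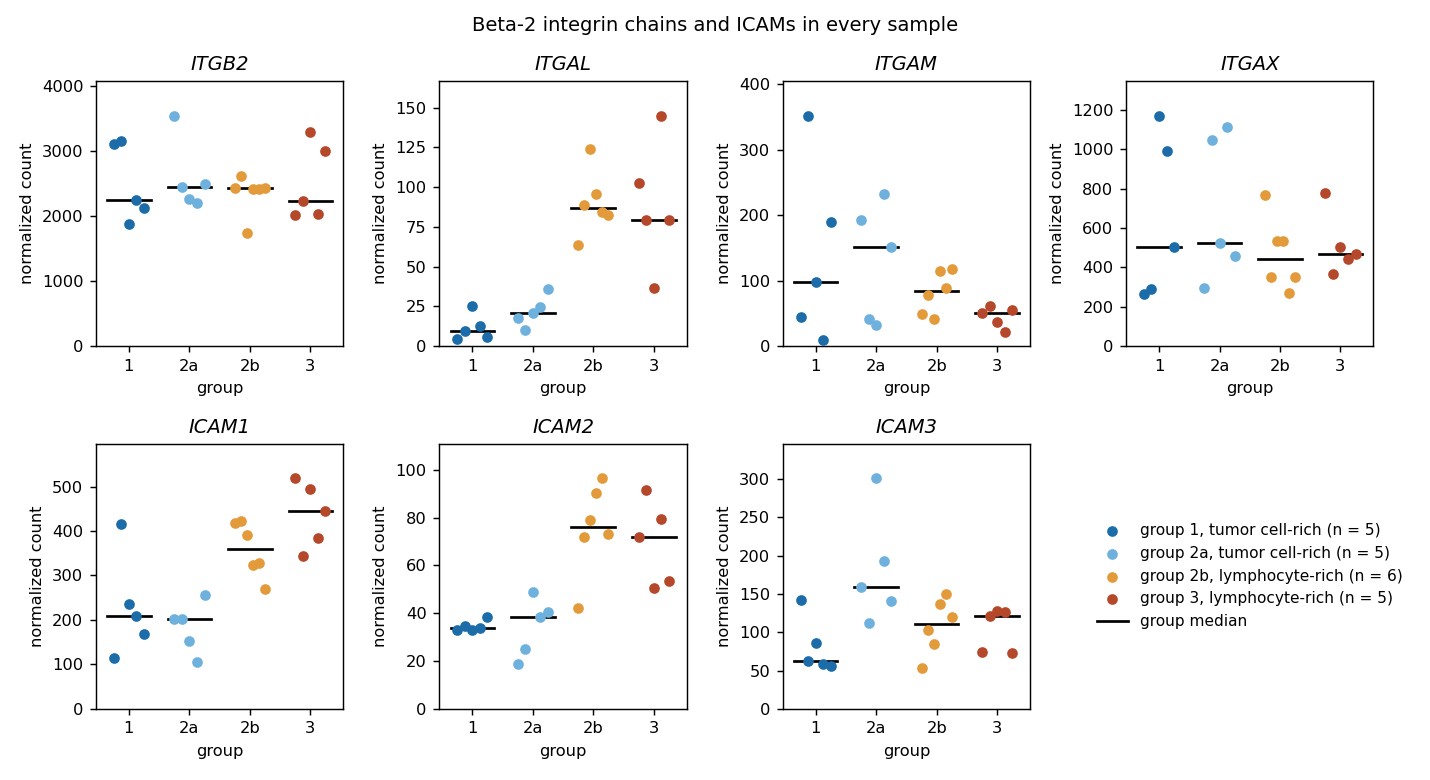
Normalized counts (linear axes starting at 0) of the 7 genes in every sample, by group, with horizontal lines at the group medians. ITGAL and ICAM1 separate groups 2a and 2b with no overlap, ICAM2 does so but for 1 sample, and ITGB2 overlaps in all 4 groups.

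The shared beta chain differed little between areas and stages. ITGB2 had medians of 2253 and 2446 in the tumor cell-rich groups 1 and 2a, and of 2429 and 2231 in the lymphocyte-rich groups 2b and 3. Ranges overlapped in all 4 groups: 1887 to 3164, 2204 to 3551, 1741 to 2626 and 2013 to 3292. No order of the groups stands out from this spread. The log2 fold change was 0.05 in group 2a vs group 1 (95% interval -0.38 to 0.49), 0.10 in group 3 vs group 2b (-0.24 to 0.44) and -0.15 in group 2b vs group 2a (-0.47 to 0.17), with edgeR adjusted p-values of 0.925, 0.843 and 0.556. All 3 intervals lie within -0.47 and 0.49.

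ITGAL, which encodes the alpha chain of LFA-1, was higher in the lymphocyte-rich areas. Its normalized counts were 4.72, 9.36, 25.5, 12.6 and 5.46 in the 5 samples of group 1 and 17.6, 10.4, 21.1, 24.6 and 35.8 in those of group 2a. In group 2b they ran from 63.5 over a median of 86.7 to 124, and in group 3 they were 103, 79.2, 36.9, 145 and 79.6. All 11 lymphocyte-rich samples thus stood above all 10 tumor cell-rich samples, although the lowest sample of group 3 (36.9) was close to the highest of group 2a (35.8). In group 2b vs group 2a alone, 10.5% of all tested genes had groups that did not overlap. For the 11 against the 10 samples this share of all genes was not computed. ITGAL rose in group 2b vs group 2a by 2.02 on the log2 scale (SE 0.28, 95% interval 1.41 to 2.63, 4.06-fold, edgeR adjusted p = 0.000386), with 6 of 6 samples above the highest sample of group 2a. When group 2b was reduced to its 2 samples from single dogs, its log2 fold change was 1.80 with an adjusted p of 0.0775. The tumor cell-rich levels rest on few reads, since raw counts of ITGAL ran from 5 to 144 over all samples.

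Between stages, ITGAL was not called. In group 2a vs group 1 the log2 fold change was 0.92 (95% interval -0.17 to 2.01, edgeR adjusted p = 0.364), with 1 of 5 samples of group 2a above all of group 1. With DV200 as a covariate it was 0.10. In group 3 vs group 2b it was -0.02 (-0.61 to 0.56, adjusted p = 0.980). In the order of medians (groups 1, 2a, 3 and 2b), the neighbors 1 and 2a overlapped, as did 3 and 2b. Groups 2a and 3 did not overlap and were not tested against each other.

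T cell markers moved with ITGAL. Per 100 normalized counts of the 12 summed T cell markers, the tumor cell-rich groups had median ITGAL values of 1.28 (group 1, 0.75 to 7.35) and 2.92 (group 2a, 1.56 to 3.45), and the lymphocyte-rich groups of 2.41 (group 2b, 1.93 to 2.83) and 2.07 (group 3, 1.09 to 2.62), so that on this scale groups 2a and 2b overlapped. The highest ratio, 7.35, belongs to the sample of group 1 with the fewest T cell marker counts (64.3) and to 5 ITGAL reads. Across samples, on the log2(normalized count + 1) scale, ITGAL and the summed markers had a Pearson r of 0.78 and a Spearman rho of 0.76 within the 10 tumor cell-rich samples, and of 0.68 and 0.69 within the 11 lymphocyte-rich samples. Without the 2 samples whose ITGAL lay farthest from the median, r was 0.44 and 0.57. The part of T cell number in the ITGAL difference was not tested.

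**Figure D2:**
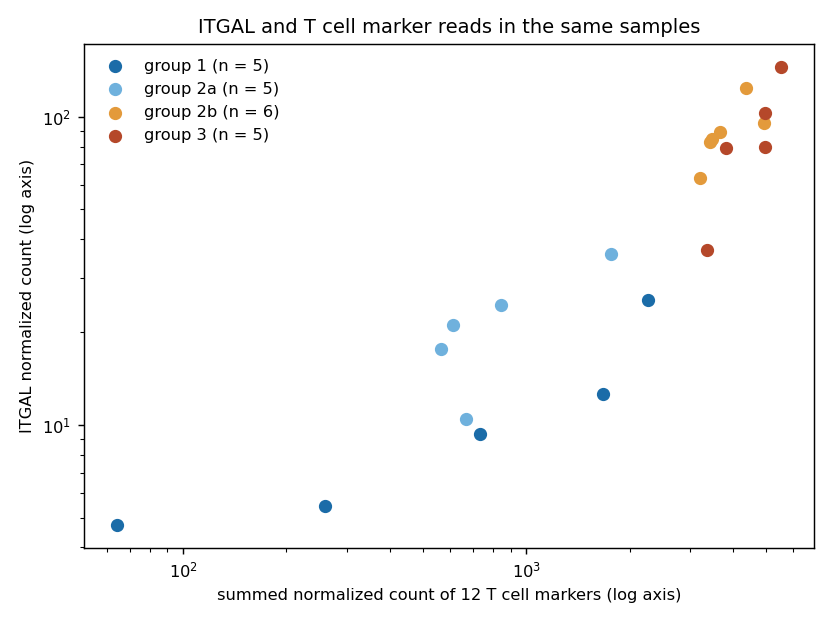
ITGAL normalized count against the summed normalized count of 12 T cell markers in the same sample (both axes logarithmic), 1 point per sample, colored by group. The 11 lymphocyte-rich samples lie at marker sums of 3217 to 5535 and ITGAL counts of 36.9 to 145, above and to the right of the 10 tumor cell-rich samples.

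ITGAM, the alpha chain of Mac-1, varied most between samples of the tumor cell-rich groups. Its normalized counts were 44.4, 352, 97.5, 8.66 and 190 in group 1 and 192, 40.6, 32.2, 232 and 151 in group 2a. In group 2b they ran from 41.0 over a median of 83.5 to 118, and in group 3 they were 50.0, 61.3, 36.9, 22.2 and 55.5. The highest samples of both tumor cell-rich groups stood above all lymphocyte-rich samples, while the lowest sample of group 1 (8.66) stood below all of them. The log2 fold change was -0.10 in group 2a vs group 1, with an interval of -1.77 to 1.58 that covers more than a doubling in either direction, and -0.67 (-1.65 to 0.31) in group 2b vs group 2a, with edgeR adjusted p-values of 0.966 and 0.356. In group 3 vs group 2b it was -0.85 (-1.53 to -0.18), with 2 of 5 samples of group 3 below all of group 2b. It was not called (edgeR adjusted p = 0.279).

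ITGAX, which encodes CD11c, had broad and overlapping ranges. Its medians in groups 1, 2a, 2b and 3 were 506, 524, 444 and 467, with ranges of 266 to 1171, 295 to 1112, 272 to 766 and 369 to 778. The highest samples of both tumor cell-rich groups exceeded those of both lymphocyte-rich groups, while the lowest samples of the 4 groups were at 266 to 369. Log2 fold changes were 0.10 (-0.91 to 1.12) in group 2a vs group 1, 0.12 (-0.41 to 0.66) in group 3 vs group 2b and -0.55 (-1.28 to 0.18) in group 2b vs group 2a, none of them called (edgeR adjusted p = 0.939, 0.879 and 0.302).

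Within the tumor cell-rich samples, the beta chain and CD11c did not run in parallel. The 3 samples with the highest ITGB2, at 3108 and 3164 in group 1 and 3551 in group 2a, had the 3 lowest ITGAX values, 266, 289 and 295. Over the 10 samples Pearson r between both genes was -0.82 and Spearman rho -0.79, against -0.19 and -0.35 over the 11 lymphocyte-rich samples. This pair was picked after its values were seen, from 77 relations among members and marker lists. The same 3 samples had summed neutrophil markers of 6290, 7499 and 2674 normalized counts, and the other 7 tumor cell-rich samples had 30.0 to 3079. Of these markers S100A8 and S100A12 are also made by keratinocytes, CXCR2 and ELANE had no row, and MPO had a mean of at most 0.61 in each group. Other marker lists were also set beside these genes over the 10 samples. Pearson r with the summed neutrophil markers was 0.72 for ITGB2 and -0.49 for ITGAX. With fibroblast markers it was 0.43 and -0.75, with histiocyte and macrophage markers 0.60 and -0.47, and with T cell markers -0.45 and 0.59. Some of these values rest on few samples. Without the 2 samples whose ITGB2 or ITGAX lay farthest from the median, r with neutrophil markers was 0.70 and -0.29. With fibroblast markers it was then 0.29 and -0.63, with histiocyte and macrophage markers 0.021 and -0.45, and with T cell markers -0.68 and 0.50. The part of other cells in the relation of ITGB2 and ITGAX was not tested.

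The mix of alpha chain reads shifted toward ITGAL in lymphocyte-rich areas. Shares of the reads of ITGAL, ITGAM and ITGAX within a sample do not depend on scaling, but they are shares of 3′ reads and not of proteins or dimers. ITGAL made up 0.78 to 1.97% of these reads in group 1 (median 1.44%) and 0.95 to 5.56% in group 2a (median 3.49%). Its share was 7.23 to 19.0% in group 2b (median 16.0%) and 6.39 to 23.9% in group 3 (median 13.2%). Each lymphocyte-rich sample exceeded each tumor cell-rich sample. These shares were not tested between groups. The median share of ITGAM was 14.1%, 16.9%, 15.2% and 6.39% in groups 1, 2a, 2b and 3, and that of ITGAX was 84.4%, 81.3%, 69.8% and 77.6%. The share of ITGAM ran from 0.85 to 54.1% in group 1 and from 3.65 to 12.04% in group 3. Per read of these alpha chains there were 3.03, 3.88, 3.84 and 4.38 reads of ITGB2 in the median sample of groups 1, 2a, 2b and 3, with broad overlap (1.46 to 9.85 in group 1, 2.16 to 5.70 in group 3).

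**Figure D3:**
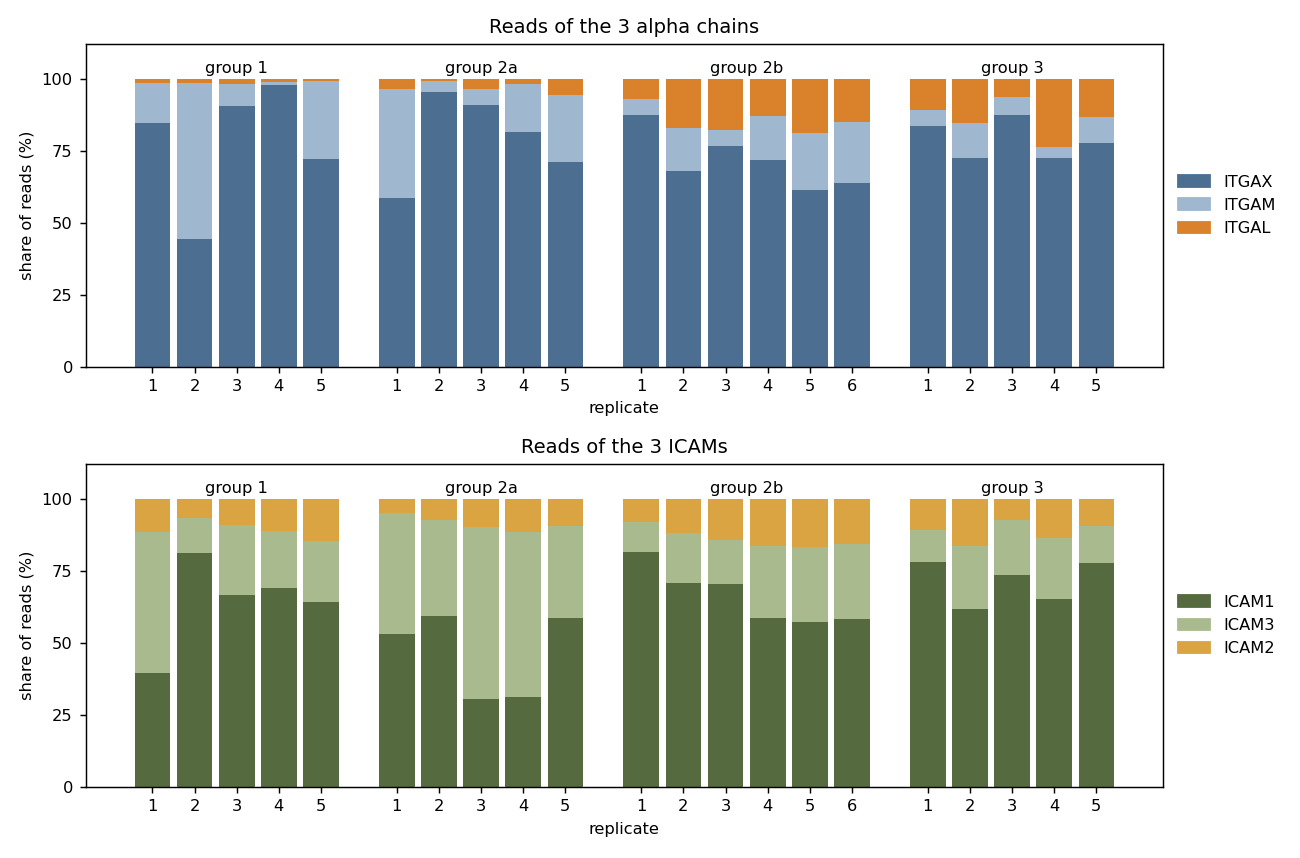
Share of reads (%) of the 3 alpha chains (top) and the 3 ICAMs (bottom) in each sample, as stacked bars that add to 100%, by group and replicate. The ITGAL share is at most 5.56% in tumor cell-rich samples and at least 6.39% in lymphocyte-rich samples, and ICAM3 has its highest median share, 41.9%, in group 2a.

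ICAM1, the cytokine-inducible ligand of LFA-1 and Mac-1, was higher in group 2b than in group 2a. Its normalized counts were 114, 417, 237, 208 and 167 in group 1 and 201, 201, 152, 105 and 257 in group 2a. In group 2b they ran from 270 over a median of 360 to 423, and in group 3 they were 519, 343, 494, 384 and 444. Groups 2a and 2b did not overlap, with 6 of 6 samples of group 2b above all of group 2a. The same groups did not overlap in 10.5% of all tested genes. 1 sample of group 1 (417) lay within the range of the lymphocyte-rich samples. The log2 fold change in group 2b vs group 2a was 0.96 (SE 0.21, 95% interval 0.52 to 1.41, 1.95-fold), with an edgeR adjusted p of 0.00588 but a size under the fold threshold, so it was not called. With group 2b reduced to its samples from single dogs it was 1.21, with an edgeR adjusted p of 0.0863, and again not called. The difference was -0.31 (-1.03 to 0.41, adjusted p = 0.671) in group 2a vs group 1. In group 3 vs group 2b it was 0.28 (-0.05 to 0.61, adjusted p = 0.459), with 3 of 5 samples of group 3 above all of group 2b. With group 2b reduced to its pools it was 0.41, and with group 2b reduced to its single-dog samples 0.05, neither of them called.

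ICAM2, the ligand held by resting endothelium and leukocytes, rose in group 2b vs group 2a. Its normalized counts lay close together in group 1, at 33.1, 34.6, 32.8, 33.8 and 38.2, and were 18.6, 25.0, 48.9, 38.6 and 40.7 in group 2a. In group 2b they ran from 42.0 over a median of 76.2 to 96.5, and in group 3 they were 71.9, 91.5, 50.4, 79.6 and 53.4. 5 of 6 samples of group 2b stood above all of group 2a, the exception being a single-dog sample at 42.0. The log2 fold change was 1.13 (SE 0.28, 95% interval 0.54 to 1.73, 2.19-fold, edgeR adjusted p = 0.0123). Without replicate 1 of group 2a it was 0.97 (adjusted p = 0.0253), and with group 2b reduced to its 2 samples from single dogs it was 0.74 (adjusted p = 0.444), both no longer called. The summed endothelial markers, 6 of 7 with a row, had medians of 581 in group 2a (477 to 941) and 587 in group 2b (427 to 901), and 0 of 6 were called. Differences of ICAM2 between stages were near 0, at -0.0031 (-0.63 to 0.63) in group 2a vs group 1 and -0.12 (-0.62 to 0.37) in group 3 vs group 2b, with edgeR adjusted p-values of 0.997 and 0.868.

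ICAM3, the ligand of resting leukocytes, had higher values in most samples of group 2a than in group 1, but the difference was not called. Its normalized counts were 143, 61.8, 86.5, 59.0 and 55.7 in group 1 and 159, 113, 301, 193 and 140 in group 2a. Here 3 of 5 samples of group 2a stood above all of group 1, and the highest sample of group 1 (143) lay within group 2a. In group 2b ICAM3 ran from 53.2 over a median of 111 to 150, and in group 3 it was 73.9, 122, 128, 126 and 73.3. The log2 fold change in group 2a vs group 1 was 1.16 (SE 0.32, 95% interval 0.45 to 1.86, 2.23-fold, edgeR adjusted p = 0.100), which was not called. DESeq2 (adjusted p = 0.0212) and a fit of all 4 groups (adjusted p = 0.0382) called it, whereas with DV200 as a covariate the log2 fold change was 0.54 (adjusted p = 0.770). With this covariate 0 of all 11200 tested genes were called, against 44 without it. DV200 was lower in group 1, as given above, and its part in the ICAM3 result was not tested further. In group 2b vs group 2a the log2 fold change was -0.75 (-1.35 to -0.16, edgeR adjusted p = 0.0801), with 3 of 6 samples of group 2b below all of group 2a. In group 3 vs group 2b it was -0.04 (-0.59 to 0.50, adjusted p = 0.963).

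The composition of the ICAM reads followed these values. Of the reads of ICAM1, ICAM2 and ICAM3, ICAM1 held a median of 66.5% and 53.2% in the tumor cell-rich groups 1 and 2a, and of 64.6% and 73.4% in the lymphocyte-rich groups 2b and 3. The median share of ICAM3 was highest in group 2a, at 41.9%, against 21.3% in group 1 and 19.0% in group 3, and all samples of group 2a (32.1 to 60.0%) exceeded those of groups 2b (10.4 to 26.0%) and 3 (11.1 to 21.9%). The median share of ICAM2 was 11.3%, 9.29%, 15.1% and 10.8%. The shares were not tested between groups.

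**Figure D4:**
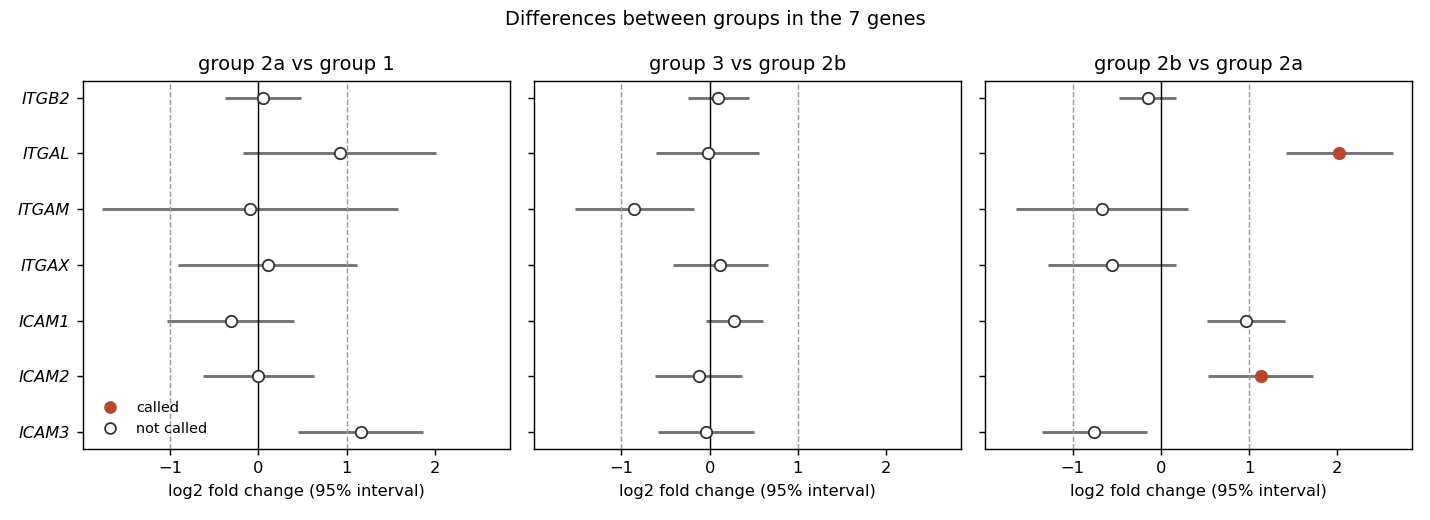
Log2 fold changes (points) with 95% intervals (lines) of the 7 genes in 3 comparisons, from edgeR. Filled points are called and open points are not, and dashed lines mark a log2 fold change of 1 in either direction. Only ITGAL (2.02) and ICAM2 (1.13) in group 2b vs group 2a are called.

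Set against all genes, the members stood out in none of the stage comparisons. The study compared stages within tumor cell-rich areas (group 2a vs group 1) and within lymphocyte-rich areas (group 3 vs group 2b). In group 2a vs group 1, 0 of 7 members were called with edgeR, beside 0.393% of 11200 tested genes, and 0 of 7 had groups that did not overlap, beside 5.65%. By unadjusted p under 0.05 there was 1 member, ICAM3, beside 17.9% of the tested genes, and DESeq2 called 1, beside 2.36%. In group 3 vs group 2b, 0 of 7 were called with edgeR, beside 0.0428% of 11685 genes, and 0 of 7 did not overlap, beside 2.11%. By unadjusted p under 0.05 there was again 1 member, ITGAM, beside 13.1% of the tested genes, and DESeq2 called 0, beside 0.402%. In group 2b vs group 2a, 2 of 7 were called, beside 9.55% of 11545 genes, and 2 of 7 did not overlap (ITGAL and ICAM1), beside 10.5%. A count of 2 among 7 genes is too small to set the family apart from these backgrounds. These comparisons share samples, as group 2a enters the first and the last and group 2b the last and the second. The median log2 fold change of all tested genes was -0.02, 0.01 and -0.01 in this order.

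The genes that switch integrins from the resting to the binding state, and that link them to actin, differed from group 2a mostly by less than the fold threshold. Of 18 such genes 17 were tested in group 2b vs group 2a, and 2 rose and 0 fell, beside 9.55% of all tested genes called. A count of 2 among 17 genes is too small to set the list apart from this share. The median log2 fold change was 0.26 against -0.01 for all tested genes. Those that rose are T cell adaptors acting upstream of LFA-1. SKAP1 reached 135 ± 20.6 in group 2b (SD, n = 6) and 31.3 ± 18.1 in group 2a (n = 5), a log2 fold change of 2.09 (SE 0.29, edgeR adjusted p = 0.000359). FYB1, which binds SKAP1, had a log2 fold change of 1.01 (adjusted p = 0.0239), just past the fold threshold. SKAP2, the relative of SKAP1 found in myeloid cells, had -0.73 (adjusted p = 0.00137), under the fold threshold. In group 2a vs group 1 and in group 3 vs group 2b, 0 of 17 were called. In group 2a vs group 1 the largest value was that of APBB1IP, the RAP1 effector that brings talin to integrins, at 1.40 (SE 0.36, adjusted p = 0.0860). It was not called. Its groups did not overlap, as was the case for 5.65% of all tested genes.

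Other integrin chains moved in both directions. Of 16 chains 11 were tested in group 2b vs group 2a, and 3 rose and 1 fell, beside 9.55% of all tested genes called. ITGA4, a chain of the lymphocyte homing receptors, rose by 1.43 on the log2 scale (adjusted p = 0.00177), from 125 ± 46.8 (SD, n = 5) to 341 ± 75.0 (n = 6). ITGA1, a collagen-binding chain, rose by 1.36 (adjusted p = 0.00432), and ITGA9 rose by 1.39 (adjusted p = 0.0430). ITGB5, the partner of the alpha V chain, fell by 1.74 (adjusted p = 8.66e-05), from 114 ± 26.4 to 34.0 ± 5.48. In both stage comparisons 0 chains were called, of 12 and 14 tested.

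Further ligands and adhesion genes rose in part. In group 2b vs group 2a 9.55% of all tested genes were called. Of 16 other ligands of beta-2 integrins, 12 had a row and 6 were tested. C3, the complement component whose fragment binds Mac-1 and CD11c, rose by 2.68 on the log2 scale in group 2b vs group 2a (SE 0.50, adjusted p = 0.00241), and THY1 rose by 1.33 (adjusted p = 0.00199). Of 8 tested selectins and vascular adhesion genes 2 rose, among them VCAM1, the endothelial ligand of ITGA4 integrins, at 1.89 (adjusted p = 0.0470). Of 12 genes of the cytokine pathway that induces ICAM1, 10 were tested and IL1B had no row. In group 2b vs group 2a 1 was called, IRF1, an interferon-induced factor, which rose by 1.11 (adjusted p = 0.00592). By unadjusted p under 0.05 in edgeR there were 5 of 10, beside 3462 of 11545 tested genes. TNF was too low to be tested, with a mean of at most 0.40 in each group. In both stage comparisons 0 genes of these 3 lists were called.

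Cell type markers give the setting of these differences. In group 2b vs group 2a, 10 of 11 tested T cell markers rose (median log2 fold change 2.11), beside 9.55% of all tested genes called. Of 7 B cell markers 6 rose (median 4.62), among them CD79B at 5.46 and PAX5 at 5.26. Of the other marker lists, 0 histiocyte and macrophage (of 9), Langerhans cell (of 2), neutrophil (of 2), endothelial (of 6), keratinocyte (of 6) and fibroblast markers (of 6) were called. In both stage comparisons 0 markers of any list were called, although several lists had medians beyond 1 in size. The median log2 fold change in group 2a vs group 1 was -2.16 for 6 keratinocyte, -1.34 for 2 neutrophil and -1.26 for 2 Langerhans cell markers. For group 3 vs group 2b it was 2.33 for 2 neutrophil, 1.82 for 6 keratinocyte, 1.10 for 2 Langerhans cell and -1.21 for 7 B cell markers. The part of any of these cell types in the values of ITGAL, ICAM1 and ICAM2 was not tested.

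The genes with a pattern most like that of each member, by Pearson r over all 21 samples among 11198 genes, were as follows. For ITGAL they were CSF1 (0.95), UBASH3A (0.95), a T cell signaling gene, and LOC102152940 (0.94). Within the 10 tumor cell-rich samples r was 0.83, 0.75 and 0.94, and within the 11 lymphocyte-rich samples 0.62, 0.82 and 0.54. For ICAM1 they were LOC100688849 (0.90) and TPRA1 (0.89), and for ICAM2 the nuclear receptor gene NR1H3 (0.89), TBC1D10C (0.89) and LOC119877640 (0.88). For TPRA1 r was 0.86 within the tumor cell-rich and 0.41 within the lymphocyte-rich samples. The genes named for ICAM2 had lower r within 1 kind of tissue. These were 0.55, 0.67 and 0.58 within the tumor cell-rich and 0.69, 0.71 and 0.62 within the lymphocyte-rich samples.

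ICAM3 was most like PSMC5, a proteasome subunit gene (0.90 over all samples, 0.91 within tumor cell-rich and 0.90 within lymphocyte-rich samples), LOC106558651 (0.83) and NOP56 (0.83). ITGAX was most like HNRNPUL1 (0.84), SLC41A2 (0.78) and NOL4L (0.77), and ITGAM most like CALHM6 (0.81), ME2 (0.80) and LOC119866667 (0.80). Within the tumor cell-rich samples r was 0.88, 0.89 and 0.78 for ITGAX, and 0.78, 0.87 and 0.92 for ITGAM. Within the lymphocyte-rich samples it was 0.75, 0.49 and 0.69, and 0.90, 0.58 and 0.42. For ITGB2 the highest r was 0.67, for CYB5R1, EMILIN2 and RRAGA. The points of these correlations share library preparation and scaling, and each gene was the highest of many, so they are given as descriptions.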

How the data were processed

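FFPE RNA was sequenced with the QuantSeq 3′ FWD kit, which keeps strand and reads transcript 3′ ends. The authors trimmed reads with Cutadapt, aligned them to UU_Cfam_GSD_1.0 with STAR and counted them per gene (featureCounts is listed in the submitters' processing notes); versions are not given in the sources used here. The authors deposited raw counts and normalized counts (a scaled signal) for all 21 samples in 2 tables. Dividing raw counts by a size factor per sample gave the normalized counts, with a largest relative deviation of 5.33e-15 and size factors from 0.855 to 1.27. Both tables held the same values. The deposited log2 fold changes and p-values of the authors' own comparisons were not used.

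Row names end in a number after a separator (20831 of 21399 rows), which was removed to match symbols; what the number means is not given. Groups were taken from the sample titles. Members and gene lists were chosen with earlier results of these data known, and the named genes are the members, the 3 genes most like each of them, list genes that were called and up to 3 per list with the largest change. Some genes that meet this rule are not reported here.

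Genes that reached a count of 10 in 5 or more samples of a comparison were tested by the quasi-likelihood F-test of edgeR 4.0.16 in R 4.3.3, scaled with TMM factors, in fits of 2 groups. Each comparison used only its own groups, and group 2b vs group 2a was treated as unpaired. As alternatives, limma 3.58.1 on log2(normalized count + pseudocount), DESeq2 1.42.0, other scalings, filters and thresholds, DV200 as a covariate, a replicate block, exact permutation and leaving out samples were tried. The standard error (SE) of an edgeR log2 fold change was calculated as its size divided by the square root of the F statistic. The 95% intervals used this SE and the t distribution. Correlations used log2(normalized count + 1). P-values measure the spread between these tumors, and pools vary less than single dogs would. The precision is limited by 2113393 to 3559404 reads per sample.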

Additional observations from a re-analysis of the deposited data

Results flagged for a closer look

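In 52 groups of member levels and read shares, the highest or lowest sample was compared with the rest by Dixon's test, and 2 stood apart, where chance gives about 1 in 20. Both concern ITGB2. Replicate 1 of group 2a had 3551 normalized counts, with the next sample at 2497. Replicate 3 of group 2b, a pool, had 1741, with the next sample at 2423. Without either of them ITGB2 was not called in any comparison.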

How the results depend on the processing

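Across the alternatives, the number of members called stayed within 1.5 times its value in 71 cases and moved further in 4. In group 2a vs group 1 it was 1 rather than 0 with DESeq2 and with all 4 groups in 1 fit, each time ICAM3. In group 2b vs group 2a it was 0 rather than 2 when group 2b was reduced to samples from single dogs, and it ran from 1 to 3 when a sample was left out, with 1 without replicate 1 of group 2a, where ICAM2 was lost. ICAM1 was called in 6 of 24 alternatives there (log2 fold change 0.82 to 1.21), ITGAL in 23 and ICAM2 in 22. Replicate numbers do not pair dogs (same-number correlations of deviations from -0.30 to 0.15). With a replicate block 0, 0 and 3 members were called in group 2a vs group 1, group 3 vs group 2b and group 2b vs group 2a, and 0, 1 and 934 of all genes, against 44, 5 and 1102.

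Of the recomputed log2 fold changes of members, 467 kept their direction and side of the threshold, 10 passed the threshold only in the alternative, 3 lost it and 44 changed sign, 0 of these in group 2b vs group 2a. The cause was not tested. In group 2a vs group 1 with DV200 as a covariate, ITGB2 was -0.13, ITGAM 0.53 and ICAM2 0.040. ITGAM was 0.16 with the replicate block, 0.34 with limma (pseudocount 1) and in the exact permutation test, and 0.35 with a pseudocount of 0.5. ICAM2 was 0.012 with upper-quartile factors, 0.021 with all genes and 0.0043 with at least 10 counts in every sample. With a sample left out, values ran from -0.084 to 0.16 for ITGB2, -0.41 to 0.63 for ITGAM, -0.14 to 0.43 for ITGAX, -0.47 to 0.027 for ICAM1 and -0.16 to 0.16 for ICAM2. In group 3 vs group 2b with group 2b reduced to samples from single dogs, ITGB2 was -0.0091, ITGAL 0.21, ITGAX -0.13, ICAM2 0.28 and ICAM3 0.43, and ICAM3 was 0.033 with the replicate block. With a sample left out, values ran from -0.017 to 0.17 for ITGB2, -0.27 to 0.18 for ITGAL, -0.076 to 0.32 for ITGAX and -0.18 to 0.074 for ICAM3.

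The count of all called genes depended on the setting, from 0 to 264 in group 2a vs group 1 (264 with DESeq2), 0 to 50 in group 3 vs group 2b (47 with DESeq2, 50 without replicate 3 of group 3) and 111 to 1909 in group 2b vs group 2a (111 with single-dog samples, 1909 with no fold threshold). Levels per exon length were not run, as no exon lengths were at hand. Depth limits ITGAL most, with raw counts down to 5; it was filtered out in group 2a vs group 1 when 10 counts in every sample were required.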
